A study of Mus musculus with 12 samples.

Results

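The LPS response of macrophages lacking full levels of synbindin was measured by setting 3 RNA-seq libraries of silenced cells after 4 h of lipopolysaccharide (LPS) against 3 libraries of silenced cells without LPS. These are 6 of the 12 libraries of the series, taken by the siRNA and the LPS time that the labels give. The cells were RAW264.7, an established mouse macrophage-like line, at passages 3 to 5. Silenced cells carried an siRNA against Synbindin, the product of Trappc4, and LPS was given at 100 ng/ml. The other 6 libraries came from cells with control siRNA, 3 without LPS and 3 after 4 h at the same dose, and are used here for the test of whether the responses differ. All groups share 1 cell line, and nothing in the labels says that replicates came from separate cultures or transfections, so the p-values cover only the differences between libraries and these may be technical.

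LPS, a component of the outer membrane of Gram-negative bacteria, is passed by CD14 to the TLR4 and MD-2 receptor. The adaptor MyD88 carries the signal to NF-kB and the MAP kinases, which drive cytokine genes, and the adaptor TRIF carries it to IRF3 and interferon beta, whose receptor then acts on antiviral genes. Macrophages given LPS also slow their division, and inhibitors made under NF-kB limit the response. Synbindin is a subunit of TRAPP, a complex that tethers vesicles between the endoplasmic reticulum and the Golgi.

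Trappc4, on chromosome 9 from 44403698 to 44407600 (GRCm38, minus strand), read 14.1, 13.1 and 12.5 FPKM in control cells without LPS and 13.8, 15.7 and 9.45 FPKM in control cells with LPS. In silenced cells it read 4.35, 7.17 and 6.15 FPKM without LPS and 5.86, 7.71 and 8.26 FPKM with LPS, so every silenced library lay below every control library. FPKM, the unit used throughout, is fragments per kilobase of transcript scaled to each library. With LPS, Trappc4 in silenced cells changed by 0.28 ± 0.19 (log2 fold change ± SE, n = 3 against 3), and limma's adjusted p was 0.267, with the groups overlapping. Trappc4 lies antisense to the abundant Rps25, and without the strand setting of the counting the reads of that pair cannot be told apart with certainty.

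The silenced libraries held 11672 to 12195 genes at 1 FPKM or more. Their estimated depth was 7.38 to 12.3 M fragments (M, mega) without LPS and 13.5 to 17.5 M with LPS. By this estimate, which is rough, the libraries with LPS were deeper, and the part of depth in the results was not tested. Replicate 3 stood apart in both groups. Without LPS it was the lowest of 3 libraries for 41 of 58 interferon-stimulated genes, and with LPS it was the highest for 44 of these 58 and the lowest for 45 of 48 G1/S genes. Of 15 macrophage markers, 14 averaged at least 1 FPKM, and Mertk was near 0. Ms4a1, Cd3g, Ly6g, Col1a2 and Krt8, which define B, T, neutrophil, fibroblast and epithelial cells, were listed at 0 in all 6 silenced libraries. Of 10 markers each, 5 B cell, 7 T and NK cell and 5 neutrophil ones were at 0 in all 12 libraries. So were 5 fibroblast and 6 epithelial and endothelial ones. Other members were detected. The neutrophil marker Csf3r read 2.78, 3.76 and 3.25 FPKM without LPS and 2.83, 1.92 and 1.98 FPKM with LPS. The T cell marker Lck read 0.180, 0.450 and 0.634 FPKM, then 1.95, 1.67 and 1.78 FPKM.

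LPS changed the levels of 6337 of 13078 genes tested in silenced cells, or 48.5% of them (limma on log2(FPKM + 1), Benjamini-Hochberg adjusted p under 0.05). Of these, 1698 rose, 13% of all genes tested, and 4639 fell, 35.5%. The rises were fewer and larger. In 7564 genes, or 57.8%, the groups did not overlap: all 3 libraries with LPS were above the others for 2089 (16%) and below for 5475 (41.9%). Among changes of at least 3 on the log2 scale there were 134 rises and 2 falls, and at 5 or more there were 28 rises and 0 falls. Genes whose calls were higher made up 11.9% of the summed FPKM without LPS and 28.0% with LPS, while genes called lower went from 27.8% to 16.7%. The median change of all genes was −0.21, and this centre depends on the scaling. Median-ratio scaling moved the median to 0.01 and gave 2964 rises and 2839 falls, so that 51.1% of calls were higher in place of 26.8%, and quantile normalization gave 2252 and 3350. A change is therefore read below against the median of −0.21, and all log2 changes are of log2(FPKM + 1), so the added 1 makes the changes of weakly expressed genes too small. In bulk RNA, fewer cells with a transcript and less transcript per cell cannot be told apart.

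**Figure D1:**
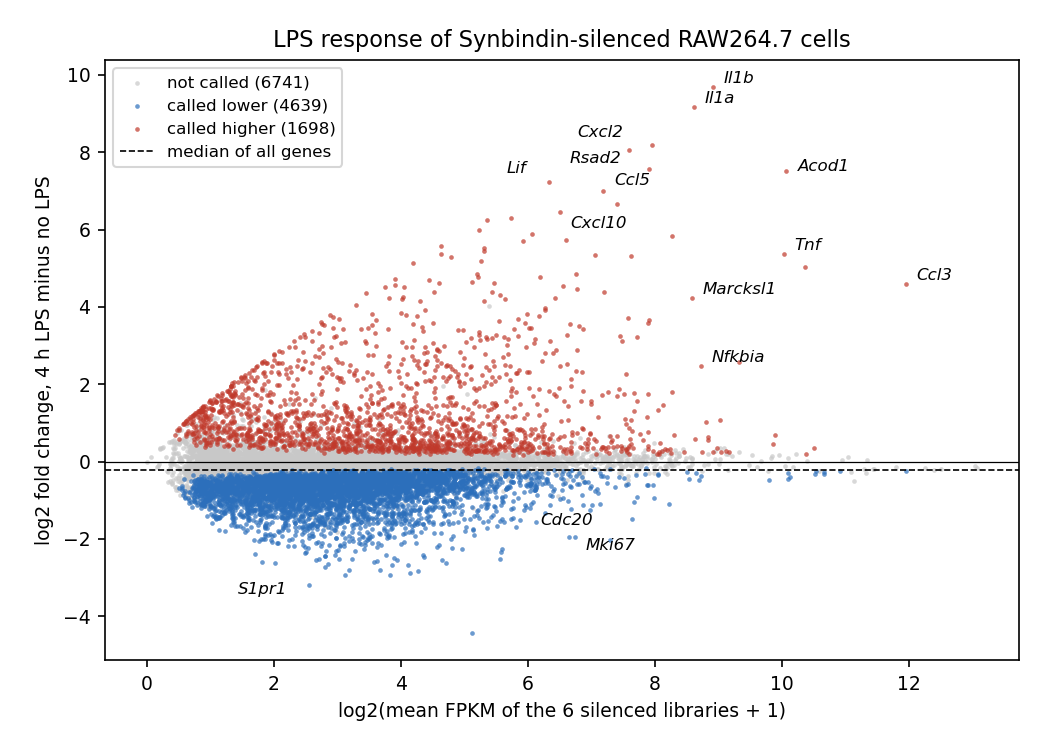
Log2 fold change of each gene tested (4 h LPS minus no LPS, silenced cells, n = 3 against 3) against log2 of its mean FPKM plus 1, with genes called higher in red, genes called lower in blue, genes not called in grey and the median of all genes as a dashed line. The 1698 rises reach much larger changes than the 4639 falls, and the dashed line lies at −0.21.

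Interleukin 1 led the response. Il1b, the gene of the pyrogenic cytokine IL-1 beta (chromosome 2, 129364570 to 129371139), read 0.0460, 0 and 0.469 FPKM without LPS and 816, 851 and 1218 FPKM with LPS. It was near 0 in the 3 libraries without LPS and among the most abundant cytokine transcripts in the 3 with LPS, a change of 9.68 ± 0.21 with a limma adjusted p of 9.66e-11. Il1a read 0.161, 0.469 and 0.442 FPKM without LPS and 742, 708 and 899.8 FPKM with LPS, again with no overlap, and rose by 9.17 ± 0.17. Tnf, the gene of tumour necrosis factor (chromosome 17, 35199381 to 35202007), was already present without LPS, at 44.7, 53.6 and 46.7 FPKM, and reached 1982, 2093 and 2054 FPKM. Its 3 libraries with LPS were all above the 3 without and close to each other, a 42.2-fold rise of mean FPKM and a log2 change of 5.38 ± 0.08. The gp130 cytokine Lif went from 0.0836, 0.0625 and 0 FPKM to 151, 138 and 187 FPKM and Il27, an IL-12 family subunit gene, from 0.233, 0.725 and 0.0658 FPKM to 87.0, 96.3 and 129.9 FPKM. Replicate 3 with LPS was the highest of the 3 libraries for both. Il1b and Il27 have antisense genes, Il1bos and Apobr, whose reads may not have been kept apart. Other genes named below have them too, among them Myd88 with Acaa1a (at most 20.47 FPKM) and Irf7 with Phrf1 (at most 14.55 FPKM). Msh6 lies antisense to Fbxo11 (at most 17.24 FPKM) and Ikbke to Gm28913 (at most 13.69 FPKM). Of 29 inflammatory cytokine and growth factor genes tested, 27 rose and 0 fell, with a median of 2.42, while Vegfa and Mif did not pass the test (−0.36 ± 0.19 and −0.13 ± 0.10).

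Some cytokine genes stood at 0 in every silenced library until LPS was given. Csf2, the gene of GM-CSF, was listed at 0 there and read 58.7, 46.0 and 38.4 FPKM with LPS (limma adjusted p = 1.38e-09). Il6, at 5.23, 4.91 and 9.22 FPKM with LPS, and Ifnb1, the gene of interferon beta, at 3.04, 3.36 and 4.41 FPKM, remained low next to Tnf. Il10, which encodes an anti-inflammatory cytokine, read 0.839, 1.80 and 1.63 FPKM and was the lowest of this group. Il12b, a subunit gene of IL-12, was listed at 0 in 5 of the 6 silenced libraries and at 0.151 FPKM in replicate 2 with LPS, and was too low to test. In all, 30 genes were listed at 0 in every silenced library without LPS and at 1 FPKM or more in all 3 with LPS. Singled out after their values were seen, these include Csf3, the gene of G-CSF, at 22.4, 23.3 and 14.4 FPKM, the vasoconstrictor gene Edn1 at 6.17, 7.76 and 12.1, and the alarmin genes Il33 at 2.20, 2.86 and 6.43 and Tslp at 3.44, 3.67 and 8.91 FPKM. The opposite pattern was seen for 3 genes, all with predicted names (Gm11800, Gm40117 and Gm48445).

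Chemokines rose with the cytokines. Of 11 CC chemokine genes tested 10 rose and 0 fell (median 4.58), and of 7 CXC and CX3C genes 6 rose, with Cxcl14 the exception (−1.42 ± 0.12). Ccl3, which recruits monocytes, had the largest gain in FPKM among the genes named, from 295, 391.6 and 272 FPKM to 7004, 7780.2 and 7973 FPKM. Ccl4 went from 77.1, 88.8 and 67.6 FPKM to 2258, 2539 and 2864 FPKM, also without overlap. Ccl22 and Ccl5, which recruit T cells, started near 0. Ccl22 read 0.200, 0.537 and 0.489 FPKM without LPS and 302, 338 and 507 FPKM with LPS, highest in replicate 3, and Ccl5 read 0.929, 1.80 and 1.09 FPKM without LPS and 253, 282 and 331 FPKM with LPS. Cxcl2, a neutrophil chemoattractant gene, read 0.679, 0.349 and 1.21 FPKM without LPS and 493, 487 and 505 FPKM with LPS, with a tight group after LPS, and rose by 8.18 ± 0.16 (limma adjusted p = 4.93e-11). The monocyte chemoattractant gene Ccl2 went from 8.36, 11.7 and 6.35 FPKM to 316, 387 and 453 FPKM. The 8 genes with the largest gains in FPKM (Ccl3, Ccl4, Ccl9, Tnf, Il1a, Il1b, Acod1 and Marcksl1) took 0.205% of the summed FPKM without LPS and 5.15% with LPS.

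**Figure D2:**
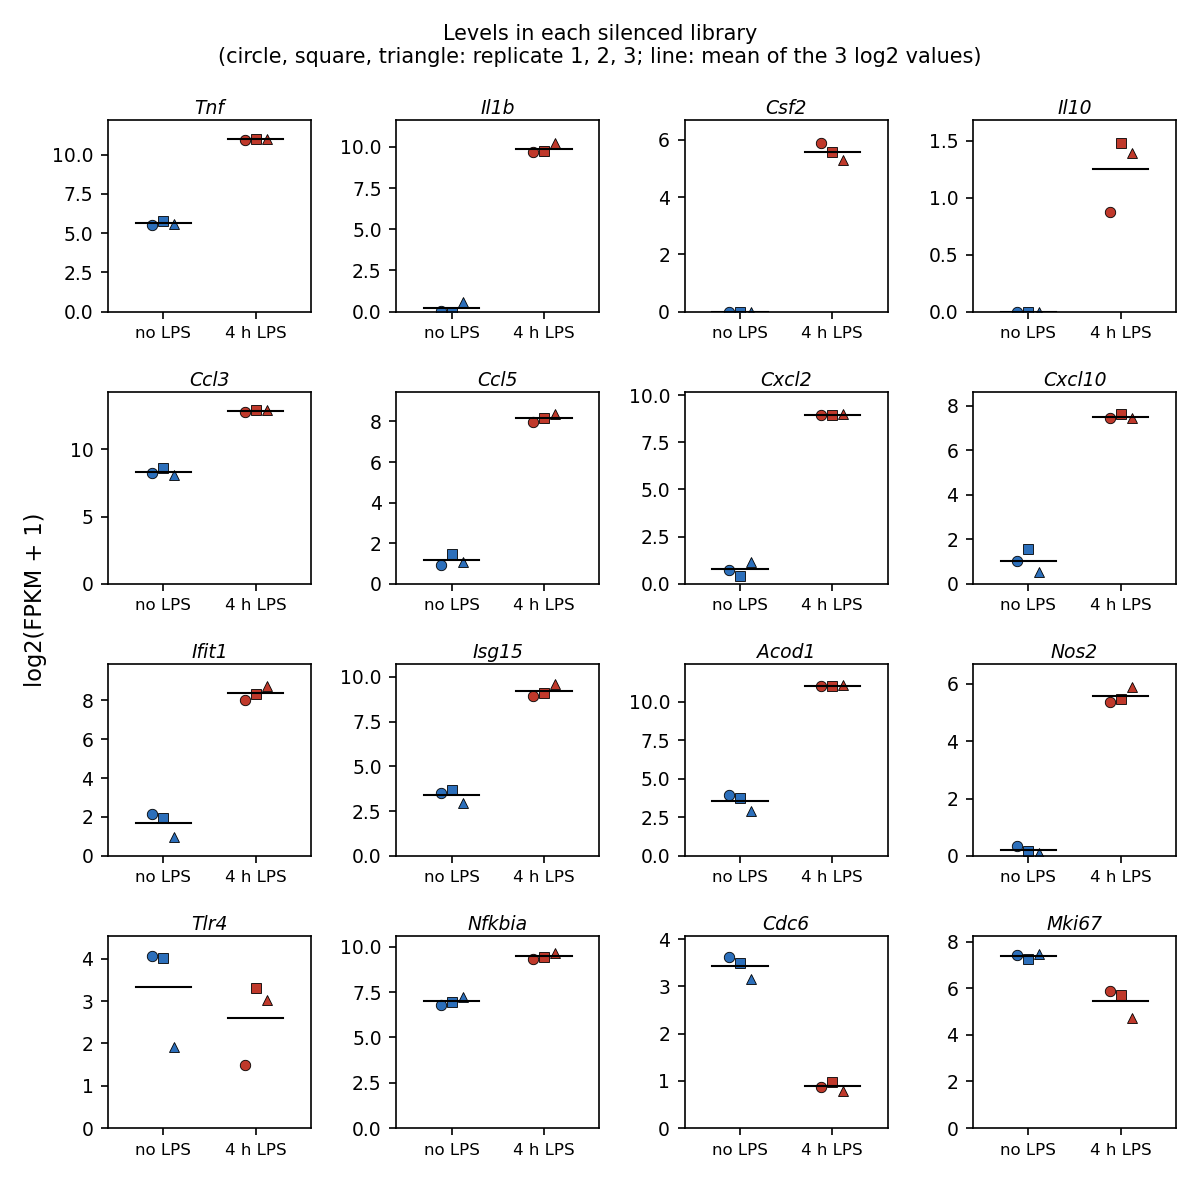
Level of 16 genes in each silenced library as log2(FPKM + 1), without LPS (blue) and after 4 h LPS (red), with replicates 1, 2 and 3 as circle, square and triangle and the line at the mean of the 3 log2 values. The groups are separate in 15 panels and overlap for Tlr4, and replicate 3 is the lowest triangle for Mki67 and the highest for Ifit1 and Isg15 after LPS.

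Promoter sequence was set beside these rises because members of the cytokine, interferon and cell-cycle lists moved together. The promoters, from RefSeq (GRCm38.p6), span 250 bases before to 50 after each start, and 8352 of the genes tested had at least 1, with 10581 promoters between them. The letters GGANTTTCC, a strict form of the NF-kB site, were found on either strand in 1.35% of promoters of tested genes and in 1.25% of all 32851 promoters. They were found in 16.7% of 24 cytokine promoters and 25% of 12 promoters of NF-kB and IkB genes, but in 0 of 7 CC chemokine promoters and 2% of 50 promoters of interferon-stimulated genes. The letters GAAANNGAA, a form of the interferon-stimulated response element (ISRE), were found in 7.36% of promoters of tested genes, 54% of 50 promoters of interferon-stimulated genes and 10 of 11 promoters of guanylate-binding and immunity-related GTPase genes. In the 114 promoters of genes that rose by at least 3, the shares were 7.02% for GGANTTTCC and 35.1% for GAAANNGAA. A match is a description of the letters and not a bound site. The 250 bases before the start are shown for 5 genes that stood among the largest rises or in the NF-kB list and hold a match, with all matches to either motif in capitals. Cxcl2 holds GGANTTTCC alone and Ifit1 GAAANNGAA alone, and Nfkbia, Cxcl10 and Isg15 hold both. Matches to GAAANNGAA overlap one another in Ifit1 and Isg15.
Cxcl2 (chr5:90903649-90903898, plus strand): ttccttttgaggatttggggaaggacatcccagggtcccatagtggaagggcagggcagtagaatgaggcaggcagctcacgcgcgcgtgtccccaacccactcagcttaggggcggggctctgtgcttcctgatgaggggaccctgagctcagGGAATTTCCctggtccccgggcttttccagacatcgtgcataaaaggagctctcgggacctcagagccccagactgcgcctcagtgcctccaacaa
Nfkbia (chr12:55492648-55492897, minus strand): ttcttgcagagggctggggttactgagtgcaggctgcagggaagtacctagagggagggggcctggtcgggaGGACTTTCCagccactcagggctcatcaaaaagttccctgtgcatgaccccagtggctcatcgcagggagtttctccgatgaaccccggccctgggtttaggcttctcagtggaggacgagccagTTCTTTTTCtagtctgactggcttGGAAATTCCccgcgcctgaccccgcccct
Cxcl10 (chr5:92348890-92349139, minus strand): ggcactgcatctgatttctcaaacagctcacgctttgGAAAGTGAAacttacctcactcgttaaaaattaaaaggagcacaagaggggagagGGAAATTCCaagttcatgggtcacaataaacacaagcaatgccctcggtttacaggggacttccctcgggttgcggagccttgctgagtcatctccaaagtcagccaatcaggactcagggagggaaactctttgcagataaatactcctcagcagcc
Ifit1 (chr19:34640639-34640888, plus strand): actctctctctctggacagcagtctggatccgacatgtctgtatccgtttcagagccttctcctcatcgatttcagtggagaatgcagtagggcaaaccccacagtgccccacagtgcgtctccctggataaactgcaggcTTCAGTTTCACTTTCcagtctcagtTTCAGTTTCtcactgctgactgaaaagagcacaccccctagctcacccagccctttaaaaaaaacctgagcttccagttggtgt
Isg15 (chr4:156200819-156201068, minus strand): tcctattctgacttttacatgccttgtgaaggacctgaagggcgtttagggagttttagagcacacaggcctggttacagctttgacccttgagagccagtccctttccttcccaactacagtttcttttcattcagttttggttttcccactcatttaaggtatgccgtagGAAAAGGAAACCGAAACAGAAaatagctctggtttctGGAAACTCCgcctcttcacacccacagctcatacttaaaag

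Interferon-stimulated antiviral genes rose almost as a block, 54 of 58 tested with 0 falling and a median of 3.10. Without replicate 3 of either group the count was again 54. Rsad2, which encodes the antiviral enzyme viperin, read 1.79, 2.18 and 0.765 FPKM without LPS and 403, 454 and 566 FPKM with LPS and had the largest change of the list, 7.56 ± 0.46 (limma adjusted p = 1.98e-07). Ifit1, whose product binds viral RNA caps, read 3.45, 2.81 and 0.954 FPKM without LPS and 253, 323 and 425 FPKM with LPS. Both were lowest in replicate 3 without LPS and highest in replicate 3 with LPS, and neither overlapped. Isg15, a ubiquitin-like modifier gene, went from 10.3, 11.8 and 6.77 FPKM to 485, 555 and 767 FPKM, and Cxcl10, an interferon-inducible chemokine gene, from 1.005, 1.94 and 0.425 FPKM to 171, 195 and 171 FPKM. The members that did not pass numbered 4 and include Ifitm6, Ifi27l2a and Ube2l6. All 13 guanylate-binding and immunity-related GTPase genes tested rose, with a median of 4.24. Gbp2, whose product attacks pathogen vacuoles, went from 0.205, 0.201 and 0.0963 FPKM to 64.2, 71.8 and 83.5 FPKM, and its near-identical neighbour Gbp2b from 0.0539, 0.0963 and 0 FPKM to 72.6, 74.2 and 92.7 FPKM, where reads shared between the copies make each value uncertain.

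The receptor gene itself varied widely between libraries. Tlr4 read 15.7, 15.2 and 2.79 FPKM without LPS and 1.82, 8.92 and 7.14 FPKM with LPS. Replicate 3 without LPS and replicate 1 with LPS were low, the groups overlapped, and the change of −0.73 ± 0.74 did not pass (limma adjusted p = 0.449). Around it, 6 of the 9 receptor and adaptor genes tested rose, 0 fell, and the median was 0.73. The co-receptor gene Cd14 read 285, 322 and 265.4 FPKM without LPS and 698, 658 and 447 FPKM with LPS and rose by 1.02 ± 0.20, with the lowest level in replicate 3 of each group. Myd88 rose from 17.1, 18.9 and 16.6 FPKM to 51.5, 51.6 and 52.4 FPKM, with 3 nearly equal libraries after LPS, and Ticam1, the gene of TRIF, from 9.12, 8.89 and 11.8 FPKM to 15.7, 16.7 and 18.8 FPKM. Among the other Toll-like receptor genes the response was split. Tlr1, Tlr2 and Tlr3 rose by 1.998 ± 0.13, 1.76 ± 0.09 and 2.54 ± 0.14, and Tlr13, a sensor of bacterial ribosomal RNA, fell from 28.5, 23.6 and 28.7 FPKM to 7.68, 8.30 and 5.87 FPKM.

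Below the receptor, calls went both ways. Of 21 IRAK, TRAF, TAK1 and IKK genes 8 rose, or 38.1% against 13% of all genes, and 4 fell, or 19% against 35.5%. The median was −0.04, against −0.21 for all genes. Ikbke, the gene of an IKK-related kinase that acts on interferon factors, went from 1.24, 1.87 and 1.64 FPKM to 35.5, 33.8 and 45.3 FPKM. Traf1 rose from 1.04, 1.33 and 1.54 FPKM to 30.5, 28.4 and 32.9 FPKM and the ubiquitin ligase gene Peli1 from 7.42, 7.40 and 7.50 FPKM to 74.4, 81.6 and 87.2 FPKM, each without overlap. The 4 that fell were Ripk1, Tab1, Irak4 and Irak1. Of 23 MAP kinase cascade genes 5 rose and 8 fell, the latter 34.8% and near the 35.5% of all genes. Mapkapk2, whose product stabilizes cytokine mRNA, rose from 139, 157 and 148 FPKM to 403, 413 and 404 FPKM, and the upstream kinase gene Map3k1 fell from 12.7, 9.18 and 12.7 FPKM to 2.30, 2.18 and 2.05 FPKM. The change of −0.20 ± 0.10 in Mapk3, an ERK gene, did not pass.

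NF-kB genes rose nearly throughout, 10 of 11 with a median of 2.27, and the exception was Rela, the p65 gene, at −0.27 ± 0.10, close to the median of all genes and not called without replicate 3 of either group. Nfkbia, the gene of the inhibitor IkB alpha, read 111, 124.96 and 149 FPKM without LPS and 644, 688 and 805 FPKM with LPS. Replicate 3 was highest in both groups, the groups were well apart, and the rise was 2.47 ± 0.12 (limma adjusted p = 3.66e-08). Nfkbiz, which encodes a nuclear IkB protein needed for secondary genes, went from 2.49, 1.94 and 3.45 FPKM to 38.0, 35.5 and 35.4 FPKM, and Nfkb2, the p100 gene, from 18.4, 17.9 and 18.7 FPKM to 137, 127.5 and 139 FPKM. In the FOS, JUN, EGR, ATF and MYC list 13 of 21 rose and 7 fell, the latter 33.3% and near the 35.5% of all genes. Myc went from 3.10, 2.96 and 3.15 FPKM to 29.2, 36.5 and 27.8 FPKM and the repressor gene Atf3 from 35.7, 31.4 and 46.7 FPKM to 174, 181 and 222 FPKM, while Jun fell from 14.3, 15.2 and 20.8 FPKM to 4.06, 3.79 and 2.68 FPKM. Of 14 IRF and STAT genes 9 rose, and Irf3, the factor that TRIF activates by phosphorylation, was the 1 that fell (−0.44 ± 0.11), a call that median-ratio scaling did not give. Irf1 rose from 4.52, 5.30 and 4.88 FPKM to 38.6, 40.1 and 46.6 FPKM, Irf7 from 4.28, 4.59 and 3.54 FPKM to 37.9, 31.3 and 36.5 FPKM and Stat2 from 4.17, 3.40 and 3.59 FPKM to 29.4, 28.1 and 33.5 FPKM, all without overlap.

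Of 15 lineage factor genes 7 rose, or 46.7% against 13% of all genes, and 5 fell, or 33.3%, near the 35.5% of all genes. Under median-ratio scaling 9 rose and 4 fell. Cebpd, an acute-phase factor gene, rose from 4.76, 3.71 and 3.98 FPKM to 29.0, 32.1 and 31.2 FPKM. Cebpa, which encodes a factor of myeloid differentiation, fell from 3.76, 4.58 and 6.19 FPKM to 0.339, 0.525 and 0.488 FPKM, with all 3 libraries under 1 FPKM after LPS. Spi1, the PU.1 gene, rose by 0.87 ± 0.07.

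Negative regulators included some of the larger rises. Of 13 ubiquitin-editing and other NF-kB brake genes 5 rose and 4 fell, and leaving out replicate 3 of either group cut the falls to 2. The falls were 30.8%, near the 35.5% of all genes, and under median-ratio scaling and quantile normalization 6 rose and 1 fell. Tnfaip3, the gene of the deubiquitinase A20, went from 4.04, 4.54 and 6.14 FPKM to 23.3, 34.0 and 24.9 FPKM, and its partner gene Tnip1 from 21.04, 19.5 and 20.1 FPKM to 112, 108 and 92.9 FPKM. Among genes of mRNA-decay factors, Zc3h12a, which encodes the nuclease Regnase-1 that cuts cytokine mRNA, rose from 4.49, 4.78 and 4.37 FPKM to 43.5, 40.6 and 38.7 FPKM. Zfp36, the tristetraprolin gene, also rose, from 10.9, 13.1 and 13.9 FPKM to 54.2, 60.3 and 74.7 FPKM, and its relative Zfp36l2 fell from 46.5, 49.8 and 50.1 FPKM to 14.2, 13.9 and 12.2 FPKM. The MAP kinase phosphatase genes Dusp1, Dusp2 and Dusp5 rose by 1.49 ± 0.19, 1.83 ± 0.13 and 2.98 ± 0.17. Spred2, a feedback inhibitor gene of the ERK pathway, fell from 25.0, 24.6 and 24.2 FPKM to 7.70, 7.21 and 5.66 FPKM. Of 7 SOCS genes, which limit cytokine receptors, 4 rose and 2 fell, and under median-ratio scaling and quantile normalization 4 rose and 0 fell. Socs3 went from 4.24, 2.90 and 5.51 FPKM to 85.4, 91.6 and 105 FPKM and Cish from 0.00961, 0.0877 and 0 FPKM to 6.39, 5.11 and 6.46 FPKM, both far apart from their levels without LPS.

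Enzymes of the inflammatory response rose selectively. Acod1, which makes itaconate, read 14.2, 12.7 and 6.46 FPKM without LPS and 2073, 2081 and 2191 FPKM with LPS, about equal in the 3 libraries with LPS, and rose by 7.51 ± 0.26 (limma adjusted p = 1.83e-09). Nos2, the inducible nitric oxide synthase gene, went from 0.284, 0.121 and 0.0733 FPKM to 40.7, 43.4 and 58.8 FPKM, and Gch1, whose product makes its cofactor, from 2.19, 2.37 and 2.28 FPKM to 14.04, 14.8 and 16.0 FPKM. Of 10 genes of nitric oxide, arginine and itaconate enzymes 6 rose and 0 fell. Ptgs2, the inducible cyclooxygenase gene, rose from 1.79, 1.25 and 0.946 FPKM to 122.6, 116 and 116.9 FPKM. Of the other prostaglandin and leukotriene genes only Ptges rose, and 4 fell (Hpgds, Pla2g4a, Alox5ap and Lta4h). Over the 12 genes of that list 16.7% rose and 33.3% fell, near the 13% and 35.5% of all genes. The phagocyte oxidase gene Cybb rose from 59.4, 54.9 and 54.8 FPKM to 188, 165 and 159 FPKM, the mitochondrial superoxide dismutase gene Sod2 rose from 15.6, 13.7 and 12.4 FPKM to 40.6, 40.6 and 39.1 FPKM, and catalase, Cat, fell from 32.6, 27.8 and 26.3 FPKM to 15.4, 16.8 and 15.8 FPKM. In the inflammasome list 8 of 14 rose, or 57.1% against 13% of all genes, and 3 fell, or 21.4% against 35.5%. Nlrp3 went from 10.97, 13.9 and 14.7 FPKM to 98.1, 96.1 and 136 FPKM and Casp4, the sensor of cytosolic LPS, from 6.18, 7.50 and 5.90 FPKM to 47.1, 50.1 and 60.5 FPKM.

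Genes of antigen presentation and costimulation rose in 19 of 20 cases, with H2-K1 the 1 that did not pass (0.65 ± 0.34), and in 17 without replicate 3 of the LPS group. Cd40, a costimulatory receptor gene, went from 0.872, 0.883 and 0.938 FPKM to 38.8, 42.8 and 55.9 FPKM, and Cd274, the PD-L1 gene, from 4.18, 3.96 and 4.45 FPKM to 51.2, 52.1 and 57.2 FPKM. Tap1, the peptide transporter gene, went from 3.93, 3.23 and 3.98 FPKM to 25.1, 27.2 and 26.5 FPKM, and as it lies antisense to Psmb9 its value is uncertain. Receptors for outside signals moved both ways. In the TNF receptor superfamily 5 of 14 rose, or 35.7% against 13% of all genes. In the same list 6 fell, or 42.9% against 35.5%, and under median-ratio scaling 7 rose and 4 fell. Among the rises were Tnfrsf1b, a receptor gene for TNF itself, from 11.7, 12.5 and 12.8 FPKM to 269, 253 and 318 FPKM, and Fas, a death receptor gene, from 0.198, 0.109 and 0.316 FPKM to 25.0, 28.1 and 30.5 FPKM. Of 22 cytokine and growth factor receptor genes 7 rose, or 31.8% against 13% of all genes, and 9 fell, or 40.9% against 35.5%. Under median-ratio scaling 7 rose and 7 fell, and log2 changes in the main fit ran from −1.84 to 2.18. The falls included Tgfbr1, Tgfbr2 and Il6ra, with log2 changes of −1.62 ± 0.16, −1.84 ± 0.16 and −1.74 ± 0.20. Csf1r, the receptor gene for the macrophage growth factor, fell from 314, 336 and 349.7 FPKM to 199.8, 185 and 136 FPKM, a gene with Hmgxb3 antisense to it.

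S1pr1, a receptor gene for sphingosine 1-phosphate (chromosome 3, 115710433 to 115715072), had the largest fall under the naming rule. It read 9.97, 6.54 and 12.5 FPKM without LPS and 0.110, 0.181 and 0.0904 FPKM with LPS, so that the 3 libraries with LPS were all close to 0 and none overlapped, a change of −3.20 ± 0.20 with a limma adjusted p of 2.33e-07. Of the other chemotactic and migration receptor genes, Gpr183, Cxcr4 and S1pr2 also fell, and 7 of the 14 rose. Ccrl2, an atypical chemokine-binding receptor gene, went from 0.656, 0.778 and 0.641 FPKM to 73.5, 70.9 and 85.0 FPKM, and Gpr84, a fatty acid receptor gene, from 18.9, 15.3 and 17.9 FPKM to 203, 174 and 154 FPKM. The adenosine receptor genes Adora2a and Adora2b rose by 1.61 ± 0.14 and 2.06 ± 0.11, and the ATP-gated channel gene P2rx7 fell from 9.30, 10.95 and 9.95 FPKM to 2.30, 2.49 and 2.51 FPKM. Trem2, a lipid receptor gene, fell from 46.0, 41.3 and 42.6 FPKM to 16.7, 15.9 and 16.0 FPKM, and the pattern receptor genes Clec4e and Olr1 rose by 3.10 ± 0.16 and 3.85 ± 0.14.

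**Figure D3:**
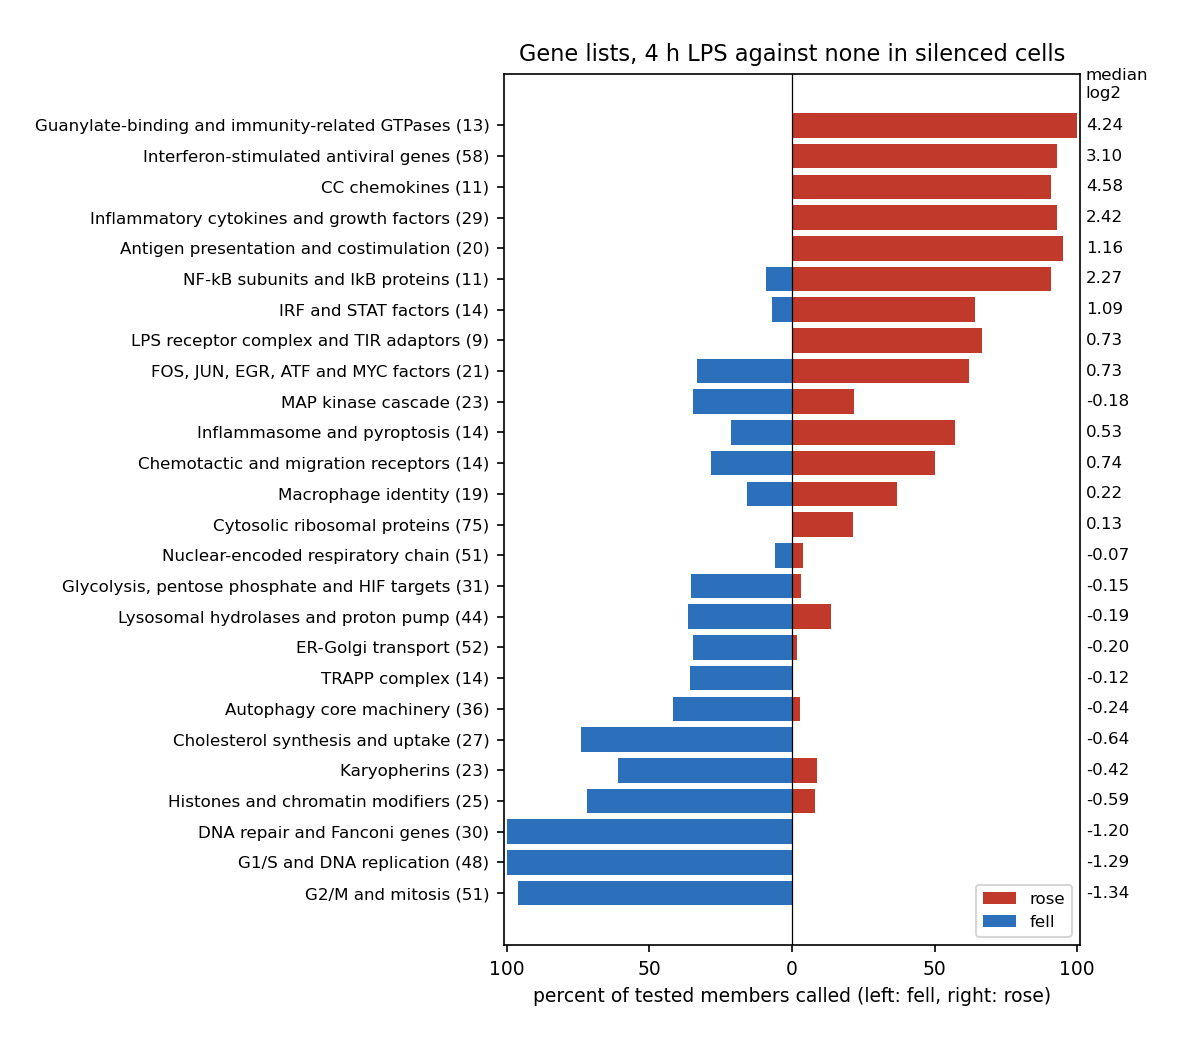
Percent of tested members of 26 gene lists (number tested in brackets) that rose, as red bars to the right, or fell, as blue bars to the left, with the median log2 fold change of each list at the right edge. The bars of the interferon-stimulated, inflammatory cytokine and CC chemokine lists lie wholly to the right, and those of the G1/S, G2/M and DNA repair lists wholly to the left.

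Genes of cell division fell together. All 48 G1/S and DNA replication genes tested fell, with a median of −1.29, and 49 of 51 G2/M genes fell, with a median of −1.34, against a fall of 35.5% of all genes. Under median-ratio scaling 41 of 48 and 48 of 51 still fell and 0 rose. Without replicate 3 of the LPS group, the lowest library in 45 of 48 and 48 of 51 of these genes, 46 and 48 were called. Cdc6, which loads the replicative helicase, read 11.3, 10.3 and 7.95 FPKM without LPS and 0.824, 0.977 and 0.731 FPKM with LPS, with all 3 libraries under 1 FPKM after LPS, and fell, with a log2 change of −2.54 ± 0.14 (limma adjusted p = 9.28e-08). E2f2, a cell-cycle transcription factor gene, went from 12.8, 10.3 and 11.5 FPKM to 1.24, 1.10 and 0.660 FPKM, and Uhrf1, a gene of DNA methylation maintenance, from 49.5, 48.3 and 34.1 FPKM to 9.33, 7.40 and 3.38 FPKM. Mki67, the Ki-67 gene, read 173, 154 and 178 FPKM without LPS and 57.7, 51.2 and 25.6 FPKM with LPS, and Kif11, a mitotic spindle motor gene, 55.2, 52.9 and 54.9 FPKM without LPS and 17.9, 17.9 and 8.30 FPKM with LPS. Replicate 3 with LPS was the lowest library for both, and the groups did not overlap. Spc24 and Plk4 did not pass (−0.24 ± 0.10 and −0.49 ± 0.20).

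The promoters of these lists were searched for other letters. TTCCCGC, an E2F-type sequence, was found on either strand in 39.1% of 46 promoters of G1/S genes against 8.61% of promoters of tested genes and 4.6% of all promoters. TTTGAA, the cell cycle homology region, was found in 72.1% of 43 promoters of G2/M genes, against 12.4% and 17.9%. It is not particular to the genes that fell. TTTGAA was found in 27.2% of the 114 promoters of genes that rose by at least 3 and in 30% of 50 promoters of interferon-stimulated genes. CCAAT was found in 63% and 69.8% of the promoters of both lists, against 38.3% and 37.4%. The 250 bases before the start are shown for 4 genes with large falls in these lists, with TTCCCGC or its reverse complement in capitals in Cdc6 and Uhrf1, and TTTGAA or its reverse complement in Kif11 and Mki67. Other motifs are left in lower case, among them a match to GGANTTTCC in Uhrf1. A further promoter of Uhrf1, not shown, holds no match to TTCCCGC.
Cdc6 (chr11:98907901-98908150, plus strand): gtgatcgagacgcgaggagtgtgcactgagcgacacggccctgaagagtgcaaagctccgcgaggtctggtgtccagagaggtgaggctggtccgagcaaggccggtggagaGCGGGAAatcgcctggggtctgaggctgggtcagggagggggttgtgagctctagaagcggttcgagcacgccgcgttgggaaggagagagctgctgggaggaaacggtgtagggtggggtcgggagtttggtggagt
Uhrf1 (chr17:56303087-56303336, plus strand): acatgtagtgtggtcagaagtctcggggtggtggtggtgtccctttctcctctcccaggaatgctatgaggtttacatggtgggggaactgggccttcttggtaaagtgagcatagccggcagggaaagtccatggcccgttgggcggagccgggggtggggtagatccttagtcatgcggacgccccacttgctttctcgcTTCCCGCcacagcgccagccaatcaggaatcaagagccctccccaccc
Kif11 (chr19:37376132-37376381, plus strand): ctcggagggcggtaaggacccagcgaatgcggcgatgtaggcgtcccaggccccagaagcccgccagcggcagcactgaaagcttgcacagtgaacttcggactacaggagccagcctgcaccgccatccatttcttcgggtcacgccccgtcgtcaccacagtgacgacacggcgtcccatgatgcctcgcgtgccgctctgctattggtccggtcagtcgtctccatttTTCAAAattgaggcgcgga
Mki67 (chr7:135716380-135716629, minus strand): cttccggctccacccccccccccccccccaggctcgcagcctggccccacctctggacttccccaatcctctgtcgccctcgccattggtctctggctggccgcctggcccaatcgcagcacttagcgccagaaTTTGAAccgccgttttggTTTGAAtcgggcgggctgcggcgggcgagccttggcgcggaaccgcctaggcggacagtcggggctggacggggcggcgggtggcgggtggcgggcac

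DNA repair genes fell as well. All 30 DNA repair and Fanconi genes fell, against 35.5% of all genes, with a median of −1.20. Msh6, a mismatch repair gene, went from 34.7, 31.0 and 34.2 FPKM to 5.76, 6.50 and 4.20 FPKM, and Brca1, a gene of homologous recombination, from 12.6, 10.8 and 9.04 FPKM to 1.57, 1.17 and 0.833 FPKM. Clspn, a checkpoint gene, went from 14.6, 13.9 and 10.2 FPKM to 1.90, 1.59 and 0.813 FPKM, lowest in replicate 3. Among 12 G1 cyclin and inhibitor genes 9 fell, or 75% against 35.5% of all genes, and Ccnd2, Cdkn1a and Cdk6 rose. Cdkn1a, the p21 gene, went from 76.8, 79.8 and 78.9 FPKM to 256, 239.7 and 279 FPKM. Of 21 p53 target genes 8 rose, or 38.1% against 13% of all genes. In that list 7 fell, or 33.3%, near the 35.5% of all genes, and under median-ratio scaling 11 rose and 5 fell. Of 25 histone and chromatin genes 18 fell, or 72% against 35.5% of all genes, and 2 rose, or 8% against 13%. Under median-ratio scaling 11 fell and 3 rose. Dnmt1, the maintenance DNA methyltransferase gene, fell from 85.9, 81.6 and 67.7 FPKM to 20.9, 16.8 and 8.72 FPKM, and Kdm6b, a histone demethylase gene induced in macrophages, rose from 1.87, 1.99 and 2.33 FPKM to 12.4, 12.8 and 12.6 FPKM. Outside the lists, the falls included Rasa3, a Ras-family GAP gene, from 31.4, 32.8 and 25.9 FPKM to 3.26, 4.54 and 2.15 FPKM, and Gmnn, the geminin gene, from 31.6, 30.7 and 24.0 FPKM to 5.51, 4.95 and 1.56 FPKM. Kbtbd11 also fell, but its 3 libraries with LPS were far apart, at 5.39, 0.203 and 3.31 FPKM. The largest fall of all, in C130050O18Rik, a gene with a clone name outside the naming rule, was −4.43 ± 0.17, from 58.4, 64.4 and 74.0 FPKM to 2.20, 1.89 and 2.17 FPKM.

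BCL2 family genes, which set the threshold of cell death, rose more often than all genes and fell less often. Of 16 BCL2 family genes 7 rose, or 43.8% against 13% of all genes, and 3 fell, or 18.8% against 35.5%. Among the rises were the anti-apoptotic copies Bcl2a1a, Bcl2a1b and Bcl2a1d, at 3.81 ± 0.11, 3.12 ± 0.10 and 3.22 ± 0.12. These copies share reads and are uncertain one by one. Bcl2l11, the pro-apoptotic BIM gene, rose too, from 4.70, 1.43 and 6.19 FPKM to 16.1, 17.0 and 17.4 FPKM, and Bnip3, Bcl2 and Bbc3 fell.

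Most cholesterol genes tested fell. Of 27 cholesterol synthesis and uptake genes 20 fell, or 74.1% against 35.5% of all genes, and 0 rose, with a median of −0.64, and under median-ratio scaling 12 fell and 2 rose. Dhcr7, which catalyses a last step of cholesterol synthesis, went from 5.79, 5.27 and 5.67 FPKM to 0.895, 1.003 and 0.713 FPKM, without overlap. Scd2, a fatty acid desaturase gene, fell from 231, 228 and 297 FPKM to 63.1, 67.7 and 50.7 FPKM, and Abca1, a cholesterol exporter gene, rose from 4.85, 4.96 and 6.14 FPKM to 14.6, 12.4 and 9.95 FPKM. Other metabolic lists lay close to the median of all genes, so that their direction depends on the scaling. Of 31 glycolysis, pentose phosphate and HIF target genes 1 rose and 11 fell, which is 35.5%, but 6 rose and 7 fell under median-ratio scaling. Among the 51 nuclear respiratory chain genes 2 rose and 3 fell, against 15 rises under median-ratio scaling and 13 falls under quantile normalization. In the citrate cycle 6 of 25 fell and 0 rose, led by Idh1 at −1.03 ± 0.13, against 7 rises and 2 falls under median-ratio scaling. The mitochondrially encoded transcripts, 16.0% ± 0.76 of summed FPKM without LPS and 13.3% ± 0.50 with LPS (SD, n = 3), fell in 6 of 13 cases. Across the scalings the falls ranged from 0, under median-ratio scaling, to 12, with libraries rescaled to a common sum. They numbered 0 without replicate 3 of the LPS group and 9 without replicate 3 of the group without LPS.

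Trafficking genes, the setting in which synbindin works, were near the background. Of 14 TRAPP genes tested 5 fell (Trappc8, Trappc10, Trappc11, Trappc12 and Trappc13) and 0 rose, or 35.7% against 35.5%, and under median-ratio scaling 3 fell and 2 rose. Trappc11 went from 15.2, 14.6 and 13.8 FPKM to 8.65, 8.52 and 7.95 FPKM and Trappc13 from 12.8, 12.6 and 11.2 FPKM to 7.90, 6.998 and 5.78 FPKM, each without overlap. Of 52 ER-Golgi transport genes 18 fell, or 34.6%, and Arf4, a small GTPase gene of Golgi transport, was the 1 that rose, from 31.0, 34.9 and 31.2 FPKM to 47.4, 46.8 and 67.2 FPKM. The direction of this list turned under median-ratio scaling, with 16 rises and 4 falls. Lysosomal genes fell in 16 of 44 cases and rose in 6, against 8 and 13 under median-ratio scaling. Tfeb, the master regulator gene of lysosome formation, fell from 4.17, 4.44 and 6.19 FPKM to 0.716, 0.768 and 0.310 FPKM. Autophagy genes fell in 15 of 36 cases, against 10 with 4 rises under median-ratio scaling, while Sqstm1, the p62 adaptor gene, rose from 83.3, 90.7 and 99.7 FPKM to 294, 294 and 349.8 FPKM. Karyopherin genes, which carry proteins and RNA through the nuclear pore, fell in 14 of 23 cases, or 60.9%, and in 7 against 6 rises under median-ratio scaling. Xpo1 fell from 42.3, 44.9 and 42.5 FPKM to 19.2, 18.0 and 14.7 FPKM and Kpna3 rose from 44.1, 41.7 and 44.9 FPKM to 107, 104 and 121.6 FPKM. The small RNA machinery, through which an siRNA acts, fell in 11 of 13 cases, or 84.6% against 35.5% of all genes, with 0 rising. Under median-ratio scaling and under quantile normalization 8 fell and 0 rose. In control cells 10 of the 13 fell with LPS and 0 rose. Ago2, the slicing Argonaute gene, went from 29.6, 31.0 and 31.3 FPKM to 17.6, 15.5 and 14.9 FPKM, and Tnrc6b from 5.21, 4.57 and 4.68 FPKM to 1.23, 1.05 and 0.701 FPKM.

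Ribosomal protein genes rose in 16 of 75 cases with 0 falling, and this list too turned with the scaling, to 58 rises under median-ratio scaling and 18 falls with 3 rises under quantile normalization. Without replicate 3 of the LPS group 5 rose. Rpl26 went from 27.3, 29.7 and 24.4 FPKM to 45.0, 42.5 and 51.2 FPKM.

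Whether the response of silenced cells differed from that of control cells was tested as the difference of the LPS changes in the same limma fit. The calls were about as many in both. Control cells had 6300 calls, 48.2% of genes, of which 1997 (15.3%) were higher and 4303 (32.9%) lower. Genes called higher in both numbered 1376, which is 81.0% of the rises in silenced cells and 68.9% of those in control cells. Genes called lower in both numbered 3558, 76.7% and 82.7%. Only 15 genes were called in opposite directions, 4 higher (Kpna1, Snord104, Gm12034 and Gm13836) and 11 lower in silenced cells, and of these Kpna1 and Dynll1 passed the test of the difference. The difference itself passed for 8 genes, 0.0612% of those tested, 5 with the higher log2 change in silenced cells (0.0382%) and 3 with the lower (0.0229%). At an unadjusted p under 0.05 there were 1480 of the 13078 genes tested, where a share of 0.05 is due without any difference. Median differences by list were 0.48 for interferon-stimulated genes, 0.43 for guanylate-binding and immunity-related GTPase genes and 0.42 for inflammatory cytokine genes. They were −0.22 for G1/S genes, −0.23 for G2/M genes and −0.03 for all genes. Whether these lists differ between silenced and control cells was not tested.

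**Figure D4:**
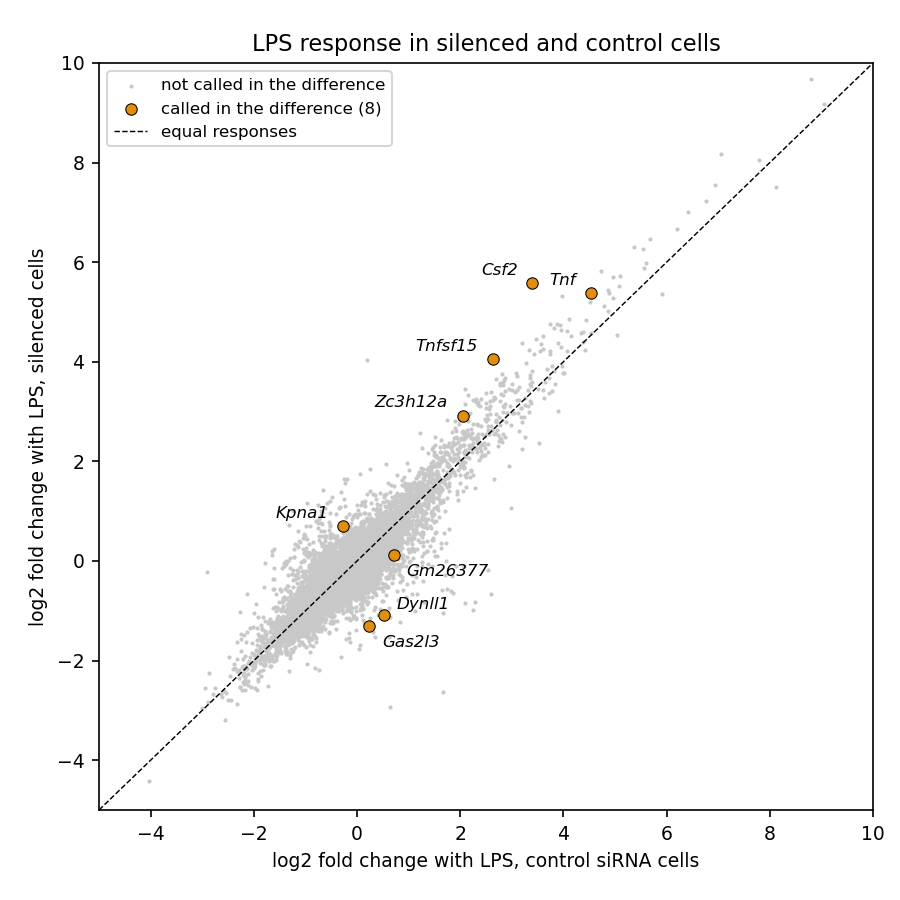
Log2 fold change with LPS in silenced cells against that in control siRNA cells, 1 point per gene tested, with equal responses on the dashed line and the 8 genes called in the difference in orange. Most genes lie near the dashed line, and Csf2, Tnfsf15, Kpna1, Zc3h12a and Tnf lie above it.

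How many genes passed depended on single libraries. Leaving out 1 library at a time gave between 0 and 20 calls. Without replicate 1, 2 or 3 of the silenced LPS group, or replicate 1 of the control LPS group, 0 genes passed, with 1419, 1239, 1367 and 1210 at an unadjusted p under 0.05. Other counts were 3 without replicate 2 of the control group without LPS, 5 without its replicate 1, 5 without replicate 2 of the silenced group without LPS, 4 without replicate 2 of the control LPS group, and 20 without its replicate 3. In the 12 fits that left out a library and the 8 other settings run for them, each of the 8 genes kept the sign of its difference. Kpna1 and Gas2l3 passed in 8 of the 12 fits, Csf2 in 7, Tnfsf15 in 6, Tnf and Zc3h12a in 2, and Dynll1 and Gm26377 in 1.

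Csf2 stood at 0 in the 6 libraries that had no LPS. With LPS it read 58.7, 46.0 and 38.4 FPKM in silenced and 9.84, 12.6 and 6.95 FPKM in control cells, so the silenced libraries were all higher. The difference was 2.19 ± 0.26 on the log2(FPKM + 1) scale (limma adjusted p = 0.0161), with a standard error that the identical zeros make too small. Tnf read 50.9, 47.0 and 53.3 FPKM without LPS and 1100.1, 1196 and 1258 FPKM with LPS in control cells, and its levels in silenced cells with LPS lay above all of these. The difference for Tnf was 0.85 ± 0.12 (limma adjusted p = 0.0344). Tnfsf15, a TNF family cytokine gene, reached 19.8, 15.3 and 17.7 FPKM in silenced and 4.73, 5.50 and 6.23 FPKM in control cells, from levels near 0 in both, a difference of 1.42 ± 0.17. Zc3h12a reached 43.5, 40.6 and 38.7 FPKM in silenced and 26.2, 24.7 and 24.5 FPKM in control cells, a difference of 0.87 ± 0.12.

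Kpna1, the gene of a nuclear import adaptor, went opposite ways. It read 6.57, 6.67 and 6.54 FPKM without LPS and 11.3, 11.4 and 11.4 FPKM with LPS in silenced cells and 13.8, 14.7 and 15.5 FPKM, then 11.5, 11.4 and 12.96 FPKM, in control cells, a difference of 0.98 ± 0.11 (limma adjusted p = 0.0161). Silenced cells had the lowest levels without LPS, and with LPS both kinds of cells were about equal. Gas2l3, a cytoskeletal linker gene, read 29.3, 26.6 and 32.4 FPKM without LPS and 11.7, 11.4 and 10.9 FPKM with LPS in silenced cells and 8.59, 7.80 and 11.7 FPKM, then 11.2, 11.7 and 10.46 FPKM, in control cells. Without LPS the silenced libraries were all higher, with LPS both kinds overlapped, and the difference was −1.54 ± 0.18. Dynll1, a dynein light chain gene, read 39.8, 40.9 and 34.8 FPKM without LPS and 17.6, 18.1 and 17.2 FPKM with LPS in silenced cells and 19.2, 16.3 and 18.0 FPKM, then 32.3, 18.6 and 29.6 FPKM, in control cells, a difference of −1.61 ± 0.23. It too started higher in silenced cells, and with LPS all 3 silenced libraries lay below the control libraries, of which replicate 2 was the lowest. Gm26377, a predicted gene outside the naming rule, differed by −0.59 ± 0.09.

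**Figure D5:**
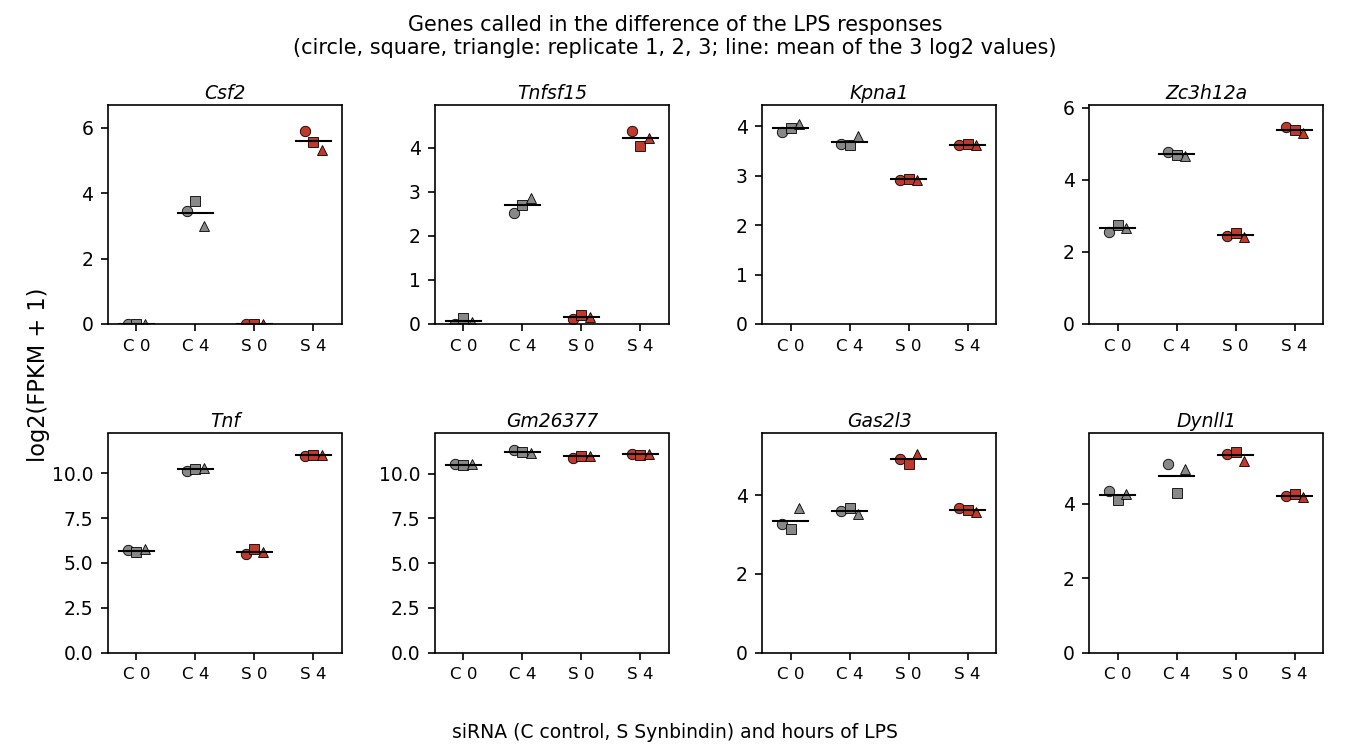
Level of the 8 genes called in the difference in each of the 12 libraries as log2(FPKM + 1), by siRNA (C control, S Synbindin) and hours of LPS, with replicates 1, 2 and 3 as circle, square and triangle and the line at the mean of the 3 log2 values. Csf2, Tnf, Tnfsf15 and Zc3h12a are higher in silenced cells after LPS, and Kpna1, Gas2l3 and Dynll1 differ between silenced and control cells already without LPS.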

How the data were processed

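RNA-seq of 12 RAW264.7 libraries was used as the FPKM that the authors deposited in 1 table of 53801 gene records, of which 53706 were found by ID in GENCODE M21, the source of coordinates. HISAT2, StringTie and the build GRCm38 are named per the submitters' processing notes; their versions, the annotation and the strand setting were not stated there. As FPKM are not counts, count models were left out. The depth estimate takes the commonest low value of FPKM times length as 1 fragment; only 6.03% to 11.9% of low values in the silenced libraries lay within 1% of whole steps, so it is rough.

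Tests covered the 13078 genes that reached an FPKM of 1 in 3 or more libraries. With R 4.3.3, limma 3.58.1 modelled log2(FPKM + 1) by 4 group means over the 12 libraries and an intensity trend, after being tested on simulated data. Tests were 2-sided, with Benjamini-Hochberg adjustment over all genes tested, and called under 0.05. Replicates share numbers across groups, and the labels do not say whether these numbers pair them, so the main fit had no replicate block. Correlations of deviations between same-numbered silenced libraries were 0.062, 0.058 and 0.064. Between silenced libraries of different numbers they ran from −0.064 to 0.004. No libraries held identical values.

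Named genes were Trappc4, the 15 highest and 15 lowest non-overlapping called genes (mean FPKM of at least 5, no predicted, clone or pseudogene name), the 8 largest rises and falls in FPKM, up to 4 called members of each of 61 lists, a fixed set of LPS genes, and those called in the difference. Others were singled out after their values were seen. Some genes covered by these rules are not reported here. The members and lists were chosen with earlier results of these data known. Motifs were searched on both strands of RefSeq promoters (GRCm38.p6). Alternatives changed the pseudocount, filter, scaling, replicate block, trend, fold threshold and libraries. Python 3.11.15, pandas 2.3.3, numpy 2.4.6 and matplotlib 3.10.9 were used.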

Additional observations from a re-analysis of the deposited data

Results flagged for a closer look

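The LPS response differed between silenced and control cells for 8 genes, by limma's test of the difference itself with Benjamini-Hochberg adjustment (0.0612% of genes tested, n = 3 in each of 4 groups). The differences, silenced minus control on the log2(FPKM + 1) scale, were 2.19 for Csf2, 1.42 for Tnfsf15, 0.98 for Kpna1, 0.87 for Zc3h12a, 0.85 for Tnf, −1.61 for Dynll1, −1.54 for Gas2l3 and −0.59 for Gm26377. Their adjusted p-values were 0.0161 for Csf2, 0.0161 for Tnfsf15, 0.0161 for Kpna1, 0.0271 for Zc3h12a, 0.0344 for Tnf, 0.0388 for Dynll1, 0.0161 for Gas2l3 and 0.0388 for Gm26377. Kpna1, Gas2l3 and Dynll1 differed between silenced and control cells before LPS as well, with no overlap of the libraries there.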

How the results depend on the processing

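Of the 252 named genes tested, 249 were called and 222 of these were called under every alternative run for them. Signs turned only under median-ratio scaling, to 0.0439 for mt-Cytb, 0.0364 for mt-Nd4, 0.0294 for mt-Co3, 0.00046 for mt-Nd3 and 0.0011 for P2ry6, and to 0.0651 for Mapk3, which was not called. That scaling gave 2964 rises and 2839 falls in place of 1698 and 4639. A threshold of 2-fold left 1900 calls, 769 rises and 1131 falls. The 6337 calls ranged from 5462 to 6418 when 1 library was left out, the rises from 1476 to 1718 and the falls from 3986 to 4707. The pseudocount of 0.1 gave 6263 calls, no filter 6327, the stricter filter 4659 and the 6 silenced libraries alone 6210. The genes called in the difference numbered 5 with the pseudocount of 0.1, 4 without the intensity trend, 4 at 2-fold, and 0 to 20 with 1 library left out. With the replicate number as a block the calls were 6595, with 1758 rises and 4837 falls, and 10 in the difference. Every silenced library correlated best with its own number, a hint from the data and not the design. Causes of these shifts were not tested. FPKM give no counts, so precision at low levels is unknown.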

Other observations

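The falls were mostly of protein-coding genes. Of 10149 protein-coding genes tested 13% rose and 41.9% fell (median −0.26), and of 932 long non-coding genes 15.9% rose and 23.1% fell (median −0.17). Among 1475 pseudogenes 13.3% rose and 9.36% fell (median 0.01), and among 504 small RNA genes 6.55% rose and 6.55% fell. Pseudogenes share reads with their parent genes, and how these were assigned is not given in the sources used here.

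Stress genes moved gene by gene. Gclc, the catalytic subunit gene of glutathione synthesis, fell from 46.3, 51.8 and 53.4 FPKM to 9.58, 10.50 and 9.24 FPKM, while Slc7a11, the cystine importer gene, rose from 5.85, 5.09 and 4.16 FPKM to 25.2, 20.3 and 19.1 FPKM and Srxn1, a sulfiredoxin gene, from 17.3, 13.6 and 13.2 FPKM to 48.2, 55.4 and 70.6 FPKM. The groups did not overlap for these genes. Of 21 Nrf2 target and glutathione genes 5 rose, or 23.8% against 13% of all genes, and 9 fell, or 42.9% against 35.5%. Under median-ratio scaling 7 of these rose and 6 fell. Of 28 genes of the unfolded protein and integrated stress responses 14.3% rose and 35.7% fell, near the 13% and 35.5% of all genes, and under median-ratio scaling 8 rose and 8 fell. In that list Eif2ak3, the PERK gene, went from 7.85, 8.36 and 8.83 FPKM to 2.37, 2.25 and 2.15 FPKM and Herpud1, a gene of protein degradation from the endoplasmic reticulum, from 16.3, 15.4 and 13.5 FPKM to 37.8, 36.0 and 30.4 FPKM. RAW264.7 cells can form osteoclasts, and of 13 osteoclast genes 7 rose, or 53.8% against 13% of all genes. In that list 4 fell, or 30.8%, near the 35.5% of all genes. Mmp9, a matrix protease gene, rose from 0.536, 1.02 and 1.11 FPKM to 21.5, 21.2 and 19.1 FPKM, Ocstamp, a cell fusion gene, from 1.51, 1.70 and 2.84 FPKM to 13.1, 13.5 and 15.8 FPKM, and Tnfrsf11a, the RANK gene, fell from 20.6, 19.6 and 14.98 FPKM to 9.21, 8.06 and 7.34 FPKM. Markers of other cells that were detected also moved. Blnk went from 5.35, 4.72 and 4.59 FPKM to 11.5, 11.5 and 11.8 FPKM, Itgax from 12.4, 12.1 and 8.16 FPKM to 29.8, 28.2 and 26.0 FPKM and Xcr1 from 0.0139, 0.151 and 0.0654 FPKM to 1.96, 2.19 and 3.12 FPKM, while 5 of 10 B cell and 5 of 10 dendritic and mast cell markers were at 0 in all 12 libraries.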
